A study of Rattus norvegicus with 4 samples.

Results

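Calcitonin gene-related peptide (CGRP) and substance P are the neuropeptides of peptidergic pain-sensing neurons, and the genes of their ligands and receptors were followed here across the cells of the rat dorsal root ganglion. Of the 7 genes sought by symbol, 4 of the 25629 features in the count tables carried one: Calca, Calcrl, Ramp1 and Ramp3. The other 3, Calcb, Ramp2 and Tac1, had no row under their symbols and were not analysed here. Some 3852 features carried no symbol, and whether these genes are among them was not tested. Tac1, the substance P precursor gene, was thus not measured, and on the substance P side only genes of receptors and of related precursors were counted. Calca (ENSRNOG00000011130) was counted with 519086 unique molecular identifiers (UMIs) in the retained cells, Ramp3 (ENSRNOG00000053766) with 5566, Calcrl (ENSRNOG00000054695) with 2136 and Ramp1 (ENSRNOG00000019926) with 359.

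Single cells came from the L4-L6 ganglia on the operated side of naïve wild-type male SD (Sprague-Dawley) rats. The CPIP group had 2 libraries and the Sham group had 2, and each library was a pool of 3 rats, so that 4 libraries and not cells are the replicates. CPIP is not spelled out by the labels and in the field stands for chronic post-ischaemia pain, a model in which a hind paw is made ischaemic and reperfused, and Sham rats are its operated controls. The labels give neither the age of the rats nor the time after surgery.

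Calca encodes αCGRP and, by alternative splicing, calcitonin, and Calcb encodes the closely similar βCGRP. CGRP is stored in dense-core vesicles of sensory neurons and, once released, widens blood vessels and acts on neighbouring cells. Its receptor is built from CLR, the product of Calcrl, and RAMP1, whereas CLR with RAMP2 or RAMP3 binds adrenomedullin. Substance P is cut from the product of Tac1 and acts on the NK1 receptor, the product of Tacr1. Counts were made per gene, so that αCGRP and calcitonin transcripts cannot be told apart, and reads of Calcb, a near copy, could have been split with Calca.

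The promoter sequences of the ligand and of the receptor gene are shown because the pair has almost opposite cell distributions in the results that follow. Each is the 250 bases before the RefSeq transcription start on build GRCr8, read 5′ to 3′ on the gene's own minus strand, Calca at chr1:178317530-178317779 and Calcrl at chr3:89932617-89932866. Capitals mark every match, on either strand, to TGACG (the core of the cAMP response element), CANNTG (the E-box) and GGAA (the core bound by ETS factors), and matches of different motifs may overlap.
Calca: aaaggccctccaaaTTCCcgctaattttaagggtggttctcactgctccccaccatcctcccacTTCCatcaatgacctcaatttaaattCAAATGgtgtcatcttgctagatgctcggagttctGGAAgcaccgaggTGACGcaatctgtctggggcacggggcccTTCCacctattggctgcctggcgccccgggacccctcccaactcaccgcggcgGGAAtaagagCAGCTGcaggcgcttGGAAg
Calcrl: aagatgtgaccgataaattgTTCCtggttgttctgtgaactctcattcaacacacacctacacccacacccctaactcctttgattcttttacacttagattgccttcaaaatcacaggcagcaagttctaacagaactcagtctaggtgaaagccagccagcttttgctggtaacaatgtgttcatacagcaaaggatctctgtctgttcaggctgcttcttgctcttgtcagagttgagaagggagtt
The Calca window held 1 TGACG, 2 CANNTG and 6 GGAA matches, and the Calcrl window held 0, 0 and 1. Among 33469 RefSeq promoter windows of that length, 18.2% held TGACG, 65.5% held CANNTG and 93.2% held GGAA. A match is a run of letters and no evidence of binding.

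The libraries held between 11829 and 12828 cell barcodes and between 60885664 and 64550637 UMIs, with median depths of 3531 and 3707 UMIs per barcode in the CPIP libraries and 3976 and 4141.5 in the Sham libraries. Any pair of libraries shared at most 5 barcodes. After filtering, 45438 cells were kept and clustered without the members, and clusters were named from markers that hold none of the members. The 12 neuron markers summed to 20849 and 23083 CPM in the neurons of the CPIP libraries and to 20576 and 21027 CPM in those of the Sham libraries, and 11 of the 12 endothelial markers had a row and summed to between 7540 and 8252 CPM in endothelial cells. CPM here is a gene's UMIs divided by all UMIs of the same cells, times 1000000. It is not corrected for length, so levels are compared for 1 gene at a time.

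Calca was a neuronal transcript with a steep order among neuron clusters. The 10758 neurons held 93.7% of all its UMIs, with 4601 and 4671 CPM in the CPIP libraries and 4529 and 5592 CPM in the Sham libraries. The cluster led by Adcyap1, Npy1r and Cartpt, called peptidergic-like from its markers, held 60.2% of all Calca UMIs in 1645 cells. Its level was 15425 and 13035 CPM in the CPIP libraries and 13575 and 14135 CPM in the Sham libraries. Every one of its cells had at least 1 Calca UMI, with a median of 115 per cell, quartiles of 64 and 265 and a highest value of 1191.

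A second and much smaller cluster reached the same level of Calca. The 428 neurons led by Cd9, Kcnv1 and Insrr carried 12535 and 16566 CPM in the CPIP libraries and 12274 and 15382 CPM in the Sham libraries, with a median of 60.5 UMIs per cell and quartiles of 19 and 129. Over the 4 libraries the cluster averaged 14189 ± 2119 CPM (SD, n = 4), against 14042 ± 1025 CPM in peptidergic-like neurons, and the ranges of the pair overlapped. The summed levels of 2 marker lists differed between the pair, although Adcyap1 alone averaged 1529 CPM in peptidergic-like neurons on the scale of the fit. By the scores used for naming, the Cd9 cluster stood at 0.54 for large neurofilament markers and 0.26 for peptidergic markers. Peptidergic-like neurons stood at 1.75 for peptidergic markers. The 6 peptidergic markers summed to between 149 and 232 CPM in the Cd9 cluster and to between 2126 and 2497 CPM in peptidergic-like neurons, whereas the 8 large neurofilament markers summed to between 1796 and 2022 CPM in the Cd9 cluster and to between 230 and 256 CPM in peptidergic-like neurons. The Cd9 cluster counted 49 and 73 cells in the CPIP libraries and 112 and 194 in the Sham libraries. At a clustering resolution of 1.0 in place of 0.5, the highest Calca level, 14839 CPM, was that of a cluster led by Adcyap1, Gfra3 and C1qtnf1. Cd9 was also a leading gene of that cluster, which was named peptidergic, and the cluster led by Kcnv1, Mgll and Htr1b was given no name.

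**Figure D1:**
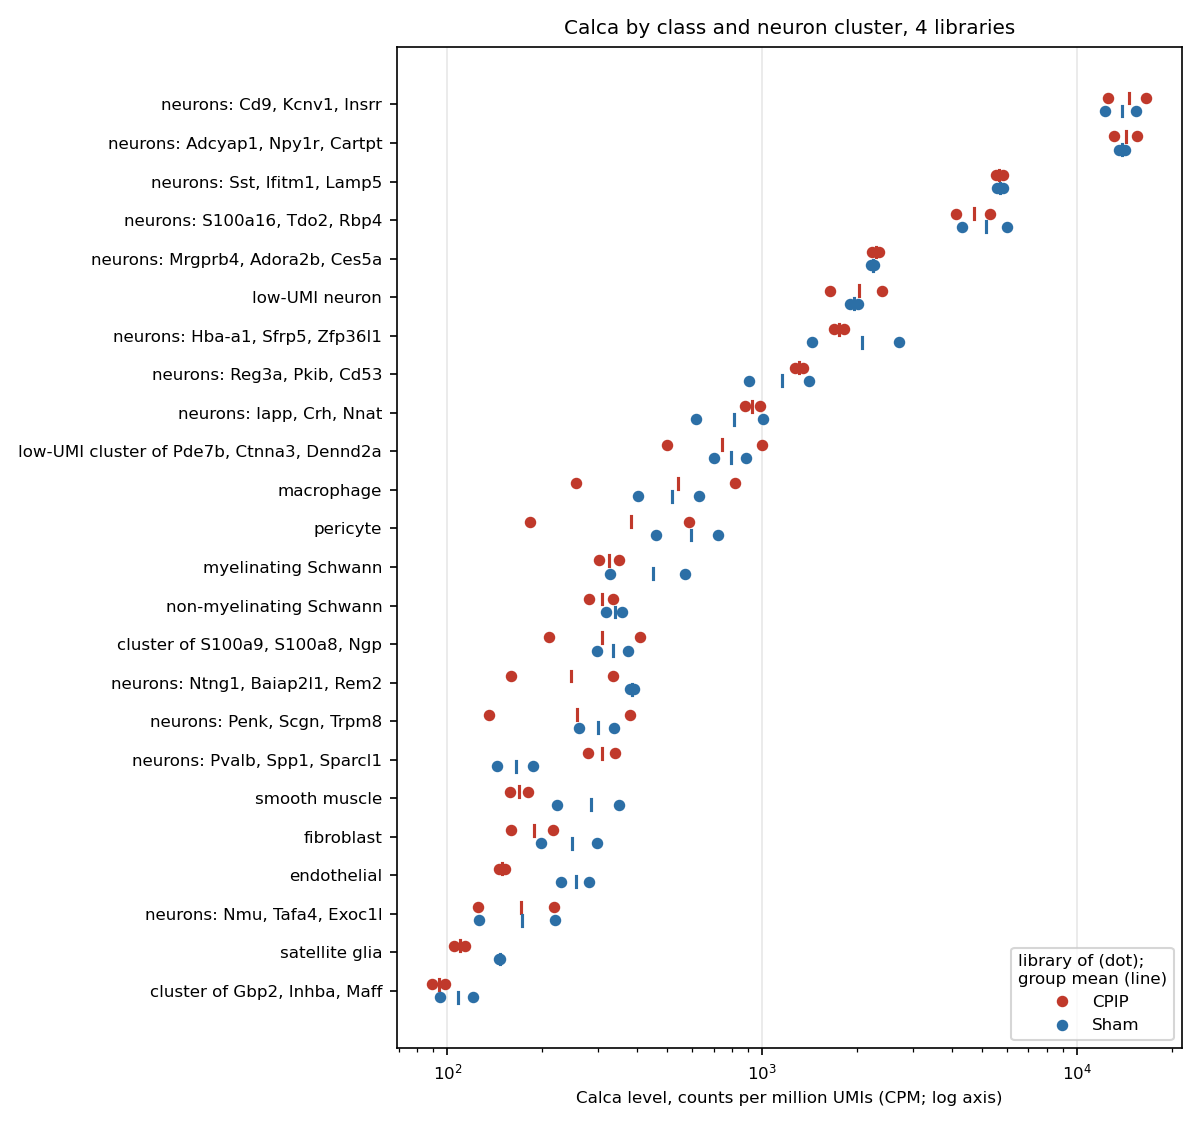
Calca level in CPM (log axis) in every cell class and neuron cluster with at least 30 cells in each library, one dot per library, with CPIP and Sham libraries in different colours and the mean of each group as a line. The cluster led by Cd9, Kcnv1 and Insrr and the peptidergic-like cluster stand together between 12274 and 16566 CPM, with the peptidergic-like mean at 2.48 times that of the next cluster, and the cell classes outside neurons lie at the low end, mostly among the lowest neuron clusters.

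The order of levels, here and for the receptor genes, takes the 24 classes and clusters with at least 30 cells in every library. Below the first pair came a step down to another pair of clusters. The Sst, Ifitm1 and Lamp5 cluster, which also carries Nppb, a marker of itch-sensing neurons in mouse, had 5793 and 5512 CPM in the CPIP libraries and 5811 and 5575 CPM in the Sham libraries. The S100a16, Tdo2 and Rbp4 cluster had 5268 and 4135 CPM in the CPIP libraries and 5978 and 4302 CPM in the Sham libraries, and its range overlapped that of the Sst cluster. The peptidergic-like mean was 2.48 times that of the Sst cluster and their ranges did not overlap. The next step down was 2.17 times, to the Mrgprb4, Adora2b and Ces5a cluster at 2267 ± 56.9 CPM (SD, n = 4). Its range overlapped that of the low-UMI neurons at 1989 ± 315 CPM, whose range overlapped that of the Hba-a1, Sfrp5 and Zfp36l1 cluster at 1916 ± 557 CPM. The Crtac1, Hoxc11 and Enpp2 neurons, left out of the order with 1 and 35 cells in the CPIP libraries and 77 and 52 in the Sham libraries, had 2568 and 2824 CPM in the CPIP libraries and 2275 and 1879 CPM in the Sham libraries, between the S100a16 and Mrgprb4 clusters by their mean.

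The other neuron clusters in the order had less Calca. The Reg3a, Pkib and Cd53 cluster averaged 1234 ± 226 CPM and the Iapp, Crh and Nnat cluster 870 ± 179 CPM (SD, n = 4 each). The Penk, Scgn and Trpm8 cluster, whose Trpm8 is the cold and menthol channel, averaged 279 ± 107 CPM, the Pvalb, Spp1 and Sparcl1 cluster 238 ± 89.4 CPM and the Nmu, Tafa4 and Exoc1l cluster 172 ± 54 CPM. From the Reg3a cluster downward the ranges of each pair of neighbours in the order overlapped. No Calca UMI was found in 62.3% of the Pvalb cells and in 50.8% of the Trpm8 cells, against 2.79% of the cells of the Iapp cluster.

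Outside neurons Calca was counted in every class, at low levels except in the cells with erythrocyte markers of CPIP 1. Satellite glia, the cells that wrap neuronal cell bodies, had 105 and 114 CPM in the CPIP libraries and 147 and 146 CPM in the Sham libraries. Endothelial cells had 145 and 153 CPM in the CPIP libraries and 230 and 281 CPM in the Sham libraries. Smooth muscle had 181 and 158 CPM in the CPIP libraries and 223 and 351 CPM in the Sham libraries. In all 3 classes both CPIP libraries lay below both Sham libraries. Of all genes tested for CPIP against Sham, 32.2% in satellite glia, 35.2% in endothelial cells and 32.6% in smooth muscle had groups that did not overlap. In the other classes the groups overlapped, from 160 to 298 CPM in fibroblasts, from 281 to 359 CPM in non-myelinating Schwann cells, from 302 to 568 CPM in myelinating Schwann cells, from 183 to 726 CPM in pericytes and from 256 to 821 CPM in macrophages. The low-UMI cluster of Pde7b, Ctnna3 and Dennd2a averaged 771 CPM. The 111 cells with erythrocyte markers had 405 Calca UMIs in CPIP 1 and 33, 47 and 1 in CPIP 2, Sham 1 and Sham 2. CPIP 1 had 35 of these cells, and only 31.4% of the 35 held a Calca UMI. The level of the class was 5046 CPM in CPIP 1, beside 4601 CPM in the neurons of that library. It was 367 CPM in CPIP 2 and 513 and 129 CPM in the Sham libraries.

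These low levels are given beside those of 14 other neuron genes, because RNA released by broken neurons can enter the capture of other cells. Calca in satellite glia was 2.65 ± 0.42% of its level in neurons (SD, n = 4 libraries), the median of the 14 other genes was 4.06%, and 13 of them were above Calca. In endothelial cells Calca was at 4.13% and the other genes at a median of 6.44%, with 12 above Calca. In fibroblasts the values were 4.46% and 6.27%, with 13 above Calca, and in smooth muscle they were 4.63% and 6.94%, with 12 above it. Most of the 14 genes thus stood above Calca in each of these 4 classes, over a wide range of shares. The range was 2.05% (Adcyap1) to 40.5% (Sncg) in satellite glia and 1.52% (Nppb) to 28.8% (Gal) in endothelial cells. It was 3.66% (Sst) to 84.3% (Gal) in fibroblasts and 3.39% (Adcyap1) to 37.4% (Gal) in smooth muscle. In macrophages, cells that take up debris, Calca was at 11.1% and the other genes at a median of 10.2%, with 4 above Calca. In the Schwann cells the shares were 6.74% in the non-myelinating and 8.12% in the myelinating class, where the other genes had medians of 8.65% and 9.0%. The part of such RNA in the Calca counts outside neurons was not tested.

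**Figure D2:**
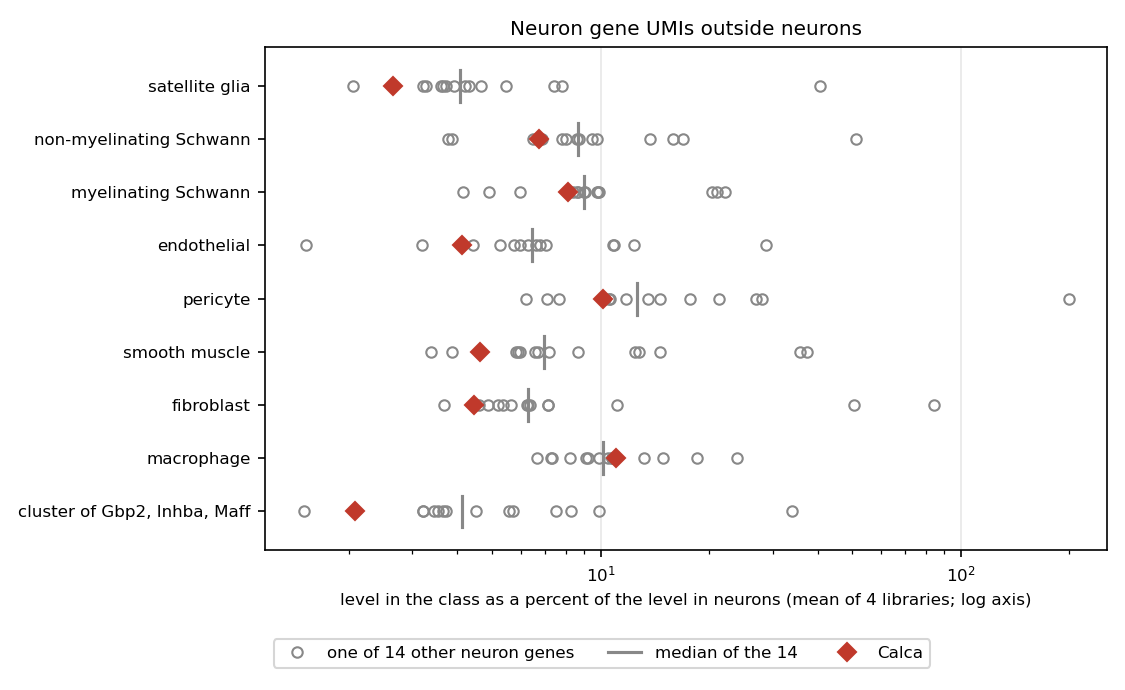
Level of Calca (red diamonds) and of 14 other neuron genes (open circles, median as a vertical line) in each class outside neurons, as a percent of the same gene's level in neurons (log axis, mean of 4 libraries). Calca lies left of the median in all classes drawn except macrophages, where it is at 11.1% beside a median of 10.2%.

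Shares of cells tell the same order. With every cell thinned to 1000 UMIs and shallower cells left out, a Calca UMI was kept in 65.4% and 65.4% of neurons in the CPIP libraries and in 68.2% and 68.4% in the Sham libraries. In satellite glia it was 10.4% (exact 95% binomial interval 9.34 to 11.5%) and 10.1% (9.15 to 11.0%) in the CPIP libraries and 11.6% (10.6 to 12.7%) and 12.5% (11.5 to 13.6%) in the Sham libraries. In endothelial cells it was 13.4% (10.9 to 16.2%) and 14.5% (11.8 to 17.5%) in the CPIP libraries and 15.2% (12.7 to 18.0%) and 18.0% (15.4 to 21.0%) in the Sham libraries. Without thinning, the endothelial shares were 31.8% and 33.0% in the CPIP libraries and 34.4% and 40.1% in the Sham libraries. In all 3 classes the CPIP libraries lay below the Sham libraries, with an exact two-sided permutation p of 0.33 each, the smallest that groups of 2 libraries allow. Intervals cover counting error only, and between 105 and 165 satellite glia and between 67 and 128 endothelial cells per library were too shallow to enter.

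Calcrl, the receptor chain, was an endothelial transcript. Endothelial cells, 3139 in all, held 75.8% of its UMIs, with 159 and 136 CPM in the CPIP libraries and 135 and 141 CPM in the Sham libraries. A Calcrl UMI was found in 35.1% and 34.8% of them in the CPIP libraries and in 31.7% and 35.8% in the Sham libraries. After thinning, the shares were 13.7% and 13.7% in the CPIP libraries and 13.4% and 14.3% in the Sham libraries. The 4 libraries thus lay within a narrow range at either depth.

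The other vessel and connective tissue cells carried less. Pericytes averaged 59.1 ± 7.13 CPM against 143 ± 11.1 CPM in endothelial cells (SD, n = 4 each), a 2.42-fold step with no overlap. The pericytes' count rests on 39 UMIs, and the endothelial markers summed to between 750 and 913 CPM in them. Fibroblasts averaged 33.6 ± 10.9 CPM, smooth muscle 30.1 ± 5.93 CPM and macrophages 24.3 ± 16.1 CPM, and the ranges of these 3 overlapped. In smooth muscle the endothelial markers summed to between 1304 and 1960 CPM, and in fibroblasts to between 40.6 and 84.3 CPM. The part of endothelial RNA in these values was not tested.

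Neurons and satellite glia were near 0 for Calcrl. Neurons had 0.896 and 0.65 CPM in the CPIP libraries and 0.705 and 1.09 CPM in the Sham libraries, from 84 UMIs in all. Satellite glia had 0.917 and 0.479 CPM in the CPIP libraries and 0.686 and 0.379 CPM in the Sham libraries, from 50 UMIs. The low-UMI neurons, kept apart from the neuron class, were higher at 8.74 ± 2.32 CPM (SD, n = 4), from 51 UMIs. Non-myelinating and myelinating Schwann cells averaged 2.52 and 1.61 CPM, from 6 UMIs each. Peptidergic-like neurons had 10 Calcrl UMIs beside 312725 of Calca. The neuron level was 0.58% of the endothelial level, where endothelial genes stood at 0.39% (Flt1), 0.48% (Pecam1), 0.28% (Cdh5), 3.47% (Egfl7) and 0.23% (Esam). The satellite glia level was 0.43% of the endothelial level, where the same 5 genes stood between 0.10% and 0.38%.

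**Figure D3:**
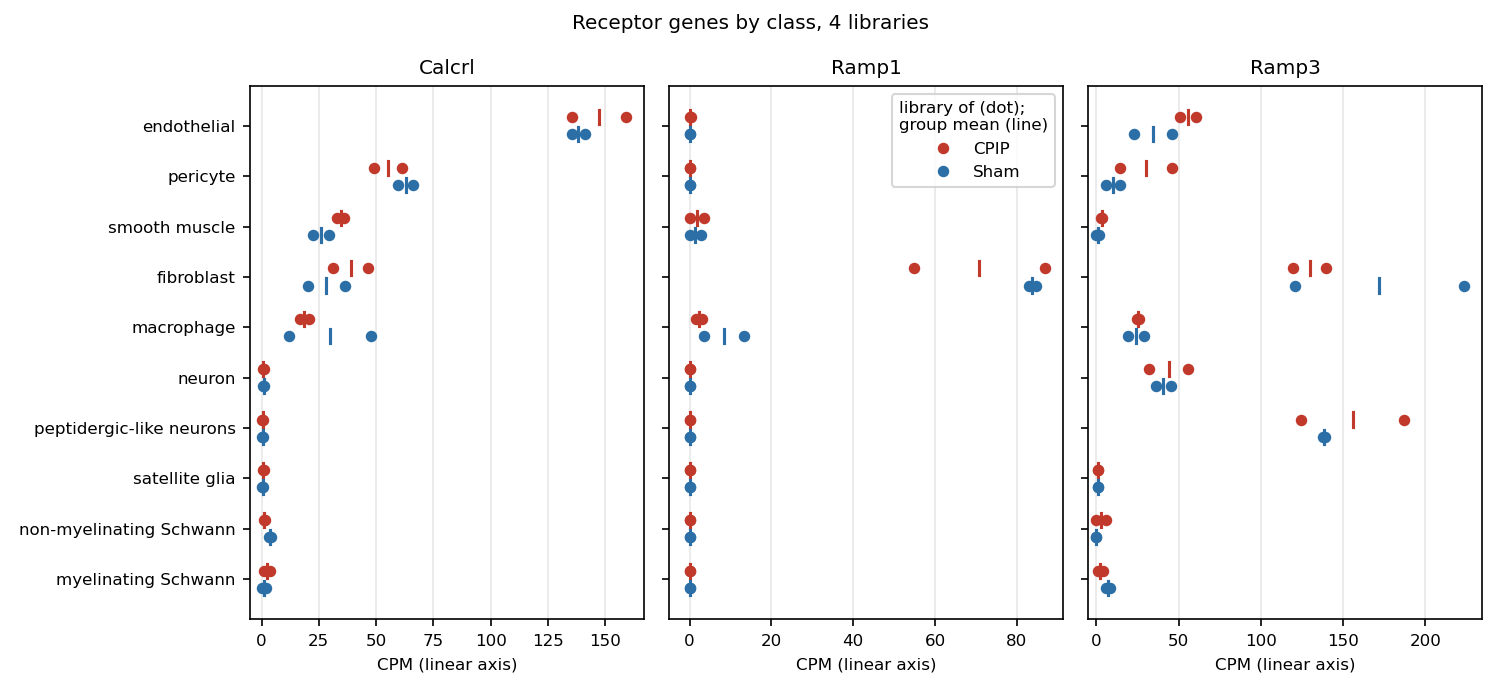
Calcrl, Ramp1 and Ramp3 levels in CPM by cell class and in peptidergic-like neurons, one dot per library, with CPIP and Sham libraries in different colours and the mean of each group as a line. Calcrl is highest in endothelial cells at 143 CPM on average, Ramp1 in fibroblasts at 77.3 CPM, and Ramp3 in fibroblasts and peptidergic-like neurons at 151 and 147 CPM.

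Ramp1, the chain that makes CLR a CGRP receptor, was counted almost entirely in fibroblasts. These 975 cells held 93.0% of its 359 UMIs, with 54.8 and 86.9 CPM in the CPIP libraries and 83.0 and 84.6 CPM in the Sham libraries. The fibroblast markers, among them Col1a1, Dcn and Lum, summed to between 134614 and 163304 CPM in the class. After thinning, a Ramp1 UMI was kept in 3.68% and 8.73% of fibroblasts in the CPIP libraries and in 5.30% and 10.3% in the Sham libraries, so that the groups overlapped.

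Elsewhere Ramp1 was at or near 0. Macrophages had 11 UMIs, neurons 5, smooth muscle 3 and endothelial cells 1. Satellite glia, both Schwann cell classes and pericytes had none. In satellite glia a count of 0 allows up to 0.162 and 0.131 CPM in the CPIP libraries and 0.158 and 0.126 CPM in the Sham libraries, on the basis of 3 counts. In the shallower pericytes it allows up to 21.1 and 23.0 CPM in the CPIP libraries and 17.8 and 14.2 CPM in the Sham libraries. The endothelial cells, which had 1619 Calcrl UMIs, thus had 1 of Ramp1.

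Ramp3, the chain of an adrenomedullin receptor and also of an amylin receptor, was high in a pair of unrelated cell types. Fibroblasts had 140 and 119 CPM in the CPIP libraries and 121 and 223 CPM in the Sham libraries. Peptidergic-like neurons had 125 and 187 CPM in the CPIP libraries and 139 and 138 CPM in the Sham libraries, and held 58.8% of all Ramp3 UMIs. The means were 151 ± 49.2 CPM in fibroblasts and 147 ± 27.6 CPM in peptidergic-like neurons (SD, n = 4 each), with overlapping ranges. In both places the groups overlapped.

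Within the order of 24, a 2.95-fold step led down to the next sets. The S100a16 cluster averaged 49.8 ± 8.09 CPM, the Sst cluster 49.7 ± 9.18 CPM and endothelial cells 45.0 ± 15.9 CPM. The Crtac1 neurons, outside the order, had 1 Ramp3 UMI in the only cell of CPIP 1, 63.6 CPM in CPIP 2, and 39.2 and 62.3 CPM in the Sham libraries. Ramp3 therefore did not follow Calca through the neuron clusters in full. The Cd9 cluster, level with peptidergic-like neurons for Calca, had a Ramp3 mean of 16.9 ± 5.44 CPM, and the ranges of the pair for Ramp3 did not overlap. The Mrgprb4 cluster, at 2267 CPM for Calca, had a Ramp3 mean of 2.28 ± 1.02 CPM. Satellite glia were at 0.933 ± 0.128 CPM.

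Within peptidergic-like neurons a Ramp3 UMI was found in 60.3% and 73.1% of cells in the CPIP libraries and in 61.8% and 59.6% in the Sham libraries. Thinned to 1000 UMIs, the shares were 9.45% (exact 95% interval 6.71 to 12.8%) and 18.1% (14.1 to 22.6%) in the CPIP libraries and 12.3% (9.30 to 15.8%) and 12.6% (9.80 to 15.9%) in the Sham libraries. The CPIP libraries stood on either side of the Sham libraries. In satellite glia, taken as the class that should lack the gene, the thinned share was at most 0.159%.

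Receptor chains were also looked for in the same cells. In endothelial cells with a Calcrl UMI, a Ramp3 UMI was found in 17.3% and 20.6% of cells in the CPIP libraries and in 10.7% and 16.4% in the Sham libraries. In endothelial cells without a Calcrl UMI it was found in 12.1% and 9.94% of cells in the CPIP libraries and in 4.13% and 8.96% in the Sham libraries. Calcrl-bearing cells were deeper, with median UMIs of 4215 to 4415 against 2281 to 2760, and the part of depth in this difference was not tested. No endothelial cell had both a Calcrl and a Ramp1 UMI. In fibroblasts a Ramp1 UMI was found in 33.3% and 41.4% of Calcrl-bearing cells in the CPIP libraries and in 26.1% and 16.7% in the Sham libraries, of 27, 58, 23 and 6 such cells. Fibroblasts without a Calcrl UMI had a Ramp1 UMI in 14.7% and 26.8% of cells in the CPIP libraries and in 28.1% and 24.1% in the Sham libraries, so that no order held across libraries.

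On the substance P side, Tacr1, the NK1 receptor gene, had 45 UMIs in all retained cells. Of these, 17 were in endothelial cells, at 2.24 and 1.52 CPM in the CPIP libraries and 1.02 and 1.29 CPM in the Sham libraries. Neurons had 6 Tacr1 UMIs and satellite glia 9. The other tachykinin receptors were also sparse, with 9 UMIs of Tacr2 and 41 of Tacr3, of which 28 were in satellite glia. Tac3, the neurokinin B precursor, had 80 UMIs, 58 of them in neurons, and Tac4, the hemokinin precursor, had 64, of which 34 were in endothelial cells. At these counts no difference between groups could be detected.

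Of the ligands and receptors that share the CGRP receptor's chains, adrenomedullin was the one well counted outside neurons. Adm had 137 and 159 CPM in endothelial cells of the CPIP libraries and 139 and 123 CPM in those of the Sham libraries. Its fibroblast level was 100 and 72.4 CPM in the CPIP libraries and 101 and 254 CPM in the Sham libraries, and satellite glia were at 20.9 ± 1.30 CPM (SD, n = 4). As a class, endothelial cells thus held Calcrl, Ramp3 and Adm, and fibroblasts held Calcrl, Ramp1, Ramp3 and Adm. Whether Calcrl and Adm were in the same cells was not tested. Iapp, the precursor of amylin, had 15305 UMIs, 14342 of them in neurons, where its level was 205 and 103 CPM in the CPIP libraries and 131 and 132 CPM in the Sham libraries. Calcr, the calcitonin receptor, had 14 UMIs, Gpr182, an atypical receptor gene, 57 and Adm2, the intermedin precursor, 4.

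The genes whose pattern was most like that of Calca, Calcrl or Ramp1 were found by Pearson correlation of log2(CPM + 1) over 80 sums, 20 classes and neuron clusters in each of 4 libraries, among 8321 genes. The sums of a library share its depth, and the values are a description. Calca was most like Gpr149 (r = 0.83), LOC685203 (0.81), Gap43, a growth-cone protein gene (0.81), Atp2c1 (0.81) and Bid (0.81). Calcrl was most like Acvrl1, an endothelial receptor kinase gene (0.92), C2H1orf54 (0.91), Sp100 (0.90), Ets2 (0.90) and Tgm2 (0.89). Ramp1 was most like Lum (0.91), Dpt (0.91), Osr2 (0.91), Aldh1a1 (0.90) and Myoc (0.85), of which Lum was among the fibroblast markers used for naming. For Ramp3, which was not among the genes chosen for this, the most like gene was Slc29a1 at r = 0.68.

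CPIP was then set against Sham with the libraries as replicates, in 1 fit over all retained cells, 9 fits within cell classes and 1 fit within peptidergic-like neurons, with edgeR's quasi-likelihood test and Benjamini-Hochberg adjustment over all genes tested. No member passed an adjusted p of 0.05 in any of these 11 comparisons. Few genes of any kind did. The share of tested genes called was 0% over all retained cells, 0.00731% in neurons, 0% in satellite glia, 0.132% in non-myelinating and 0% in myelinating Schwann cells, 0.01% in endothelial cells, 0.164% in pericytes, 0.0186% in smooth muscle, 0% in fibroblasts, 0% in macrophages and 0% in peptidergic-like neurons. At an unadjusted p under 0.05, between 161 genes in fibroblasts and 773 genes over all retained cells passed, and DESeq2 called between 0 and 51 genes per comparison. In the fit over all retained cells, fewer cells of a type and less RNA per cell cannot be told apart.

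In the cells that make most of it, Calca did not differ between the groups beyond the spread of the libraries. Its log2 fold change of CPIP over Sham in peptidergic-like neurons was 0.055 (SE 0.088, edgeR adjusted p = 0.959), and for neurons as a whole -0.11 (SE 0.11, edgeR adjusted p = 0.995). Over all retained cells it was -0.23 (SE 0.094, edgeR adjusted p = 0.871), with 2101 and 1956 CPM in the CPIP libraries below 2255 and 2517 CPM in the Sham libraries. Over all retained cells, 35.6% of tested genes had groups that did not overlap. Neurons made up 42.9% and 38.7% of the UMIs of the CPIP libraries and 46.9% and 42.4% of those of the Sham libraries, and peptidergic-like neurons made up 20.0% and 22.7% of neuron UMIs in the CPIP libraries and 20.5% and 25.7% in the Sham libraries. The part of this makeup in the value over all cells was not tested.

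In the fitted classes outside neurons the Calca fold changes were all below 0 except in macrophages, and none passed. Endothelial Calca had a log2 fold change of -0.74 (SE 0.13, edgeR adjusted p = 0.762). In satellite glia the value was -0.40 (SE 0.073, edgeR adjusted p = 0.967), and in smooth muscle -0.78 (SE 0.25, edgeR adjusted p = 0.747). In these 3 classes both CPIP libraries lay below both Sham libraries. Groups that do not overlap, in either direction, were found for 35.2% of the genes tested in endothelial cells, 32.2% in satellite glia and 32.6% in smooth muscle. In pericytes the value was -0.63, in myelinating Schwann cells -0.49, in fibroblasts -0.34, in non-myelinating Schwann cells -0.13 and in macrophages 0.10, each with overlapping groups.

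Other neuron genes in the same classes are given beside these. In endothelial cells 9 of the 13 other neuron genes tested had a fold change below 0, with a median of -0.25, a range from -0.58 to 0.63, and none below Calca. In satellite glia 9 of 14 were below 0, with a median of -0.024, and 1 was below Calca. In smooth muscle 3 of 10 were below 0, with a median of 0.15, and 1 was below Calca. None of them passed the test in these classes. The 12 neuron markers summed in endothelial cells to 1263 and 1460 CPM in the CPIP libraries and to 1552 and 1517 CPM in the Sham libraries, and in satellite glia to 894 and 936 CPM in the CPIP libraries and to 1004 and 925 CPM in the Sham libraries. The part of neuron RNA in the Calca differences of these classes was not tested.

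**Figure D4:**
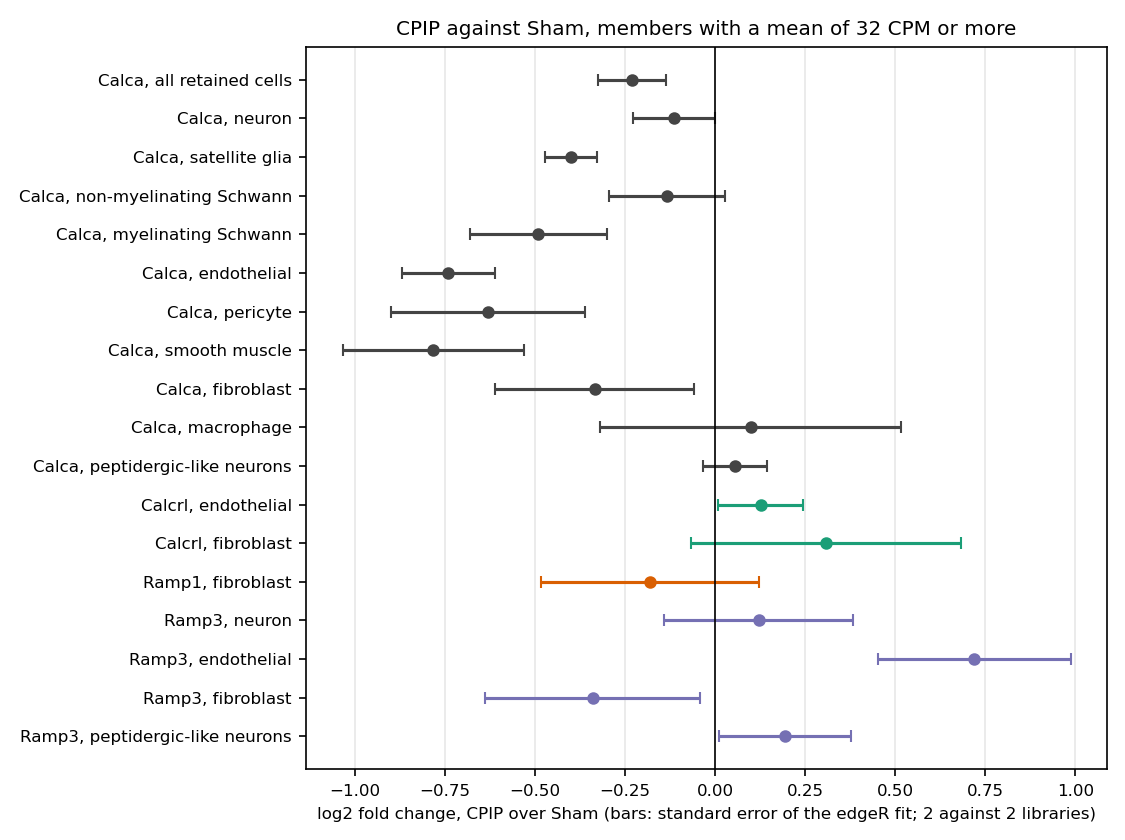
Log2 fold change of CPIP over Sham with its standard error for each member in each fitted class where it averaged at least 32 CPM (edgeR, 2 libraries per group). Calca lies below 0 in all fitted classes outside neurons except macrophages and close to 0 in peptidergic-like neurons (0.055). Ramp3 is at 0.72 in endothelial cells, and no value passes an adjusted p of 0.05.

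Of the receptor gene values with a mean of at least 32 CPM in a class, Ramp3 in endothelial cells had the largest fold change and did not pass. It was at 50.7 and 60.6 CPM in the CPIP libraries and at 23.1 and 45.8 CPM in the Sham libraries, a log2 fold change of 0.72 (SE 0.27, edgeR adjusted p = 0.915). Calcrl in the same cells had a log2 fold change of 0.13 (SE 0.12, edgeR adjusted p = 0.925). In fibroblasts the values were 0.31 (SE 0.37) for Calcrl, -0.18 (SE 0.30) for Ramp1 and -0.34 (SE 0.30) for Ramp3, and in peptidergic-like neurons Ramp3 was at 0.19 (SE 0.18, edgeR adjusted p = 0.926). Apart from endothelial Ramp3, the groups overlapped for each of these, and 35.2% of the genes tested in endothelial cells had groups that did not overlap. Fibroblast numbers differed between libraries, with 197 and 513 cells in the CPIP libraries and 176 and 89 in the Sham libraries, and the level of Ramp1 over all retained cells was 0.909 and 3.42 CPM in the CPIP libraries and 1.25 and 0.511 CPM in the Sham libraries.

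Single libraries moved the fold changes of some members. With 1 library left out, the lone library of its group is assumed to vary like the other pair, so only fold changes are given. Without CPIP 1, endothelial Calca was at -0.72, endothelial Ramp3 at 0.83 and peptidergic-like Ramp3 at 0.46. Without CPIP 2, endothelial Calca was at -0.77, pericyte Calca at -1.66, myelinating Schwann Calca at -0.62 and peptidergic-like Ramp3 at -0.14. Without Sham 2, endothelial Ramp3 was at 1.31 and myelinating Schwann Calca at -0.82. Without Sham 1, endothelial Calca was at -0.89, endothelial Ramp3 at 0.31 and myelinating Schwann Calca at -0.022. With all 4 libraries, 1 fit passed a member: the crossed replicate block, a pairing chosen after seeing the data, in which endothelial Calca was at -0.74 (edgeR adjusted p = 0.0118).

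The genes that make, store, cut and read these peptides were counted in 5 lists over the same fits. The peptide processing list has 10 genes, among them Cpe, the carboxypeptidase, and Pam, which amidates the ends of CGRP and substance P. In peptidergic-like neurons 9 of the 10 were tested and none passed, with a median log2 fold change of -0.041 beside 0.0035 for all genes. Among 14 genes of dense-core vesicles and their release, 12 were tested there and none passed, with a median of 0.10. Of the 8 peptide-cutting enzymes, 4 were tested and none passed, with a median of 0.060. The 28 genes of receptor signalling include those of cAMP and those of phospholipase C, such as Gnaq and Plcb1. Of this list 18 rows were tested in endothelial cells, where Gnas had the highest mean, and none passed, with a median of 0.058. Of the 12 related ligands and receptors, 3 were tested in endothelial cells and none passed, and Adm, the gene of highest level among them, had a log2 fold change of 0.21.

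Across the 5 lists and the 11 comparisons, 1 call was made. Pcsk1, a proprotein convertase that cuts peptide precursors, was called higher in CPIP in the non-myelinating Schwann class. It had 78.4 and 122 CPM in the CPIP libraries and 39.0 and 31.8 CPM in the Sham libraries on the scale of the fit. This is a log2 fold change of 1.47 (SE 0.29, edgeR adjusted p = 0.0255), and both CPIP libraries lay above both Sham libraries. In that class 0.132% of genes passed and 34.7% had groups that did not overlap. DESeq2, a stricter filter on cells and the crossed replicate block each called no gene there. The log2 fold change of Pcsk1 in peptidergic-like neurons was -0.041 (SE 0.15) and did not pass. The part of neuron RNA in the Pcsk1 counts of the Schwann class was not tested.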

How the data were processed

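For 4 BD Rhapsody whole transcriptome libraries the authors deposited unnormalized UMI counts, judged from their whole-number values. Which aligner, annotation, genome build and cell calling made them is not given in the sources used here, and no barcode held fewer than 500 UMIs. Cells with at least 200 genes and at most 25% mitochondrial UMIs were kept (scanpy 1.11.5). Doublets were called at a rate of 0.05 and removed, 255 in CPIP 2 and 206 in Sham 1. In CPIP 1 the caller marked only 2, so the 609 cells of highest score were removed. Cells were clustered on 1999 variable genes without the members (30 components, 15 neighbours, Leiden resolution 1.0, neurons 0.5, no integration of libraries). Names came from marker lists, by thresholds on marker scores set after the clusters were seen. Clusters whose leading genes did not carry a name are called by those genes.

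Counts were summed per library over all retained cells, peptidergic-like neurons and each class named from markers with at least 30 cells in every library. These sums were tested with edgeR 4.0.16 on R 4.3.3 (quasi-likelihood, TMM, default low-count filter, Benjamini-Hochberg), which was tested on simulated data. The low-UMI neurons (6288 cells) and the clusters called by their leading genes, such as the Gbp2, Inhba and Maff cluster (2689 cells), were not fitted. CPM levels were taken over all UMIs of a class, and CPM from the fits carry the TMM factor. All 7 genes sought were to be reported in every class, with CPIP against Sham values for a mean of at least 32 CPM. The Pcsk1 fit and the list members are named as called genes or as the list's highest gene. The members and lists were chosen with earlier results of these data known. Pools are called biological replicates by the labels, so p-values measure the spread between pools. Zero counts are given limits of 3 counts. DESeq2 1.42.0, other filters, doublet handling, thinning, replicate blocks and left-out libraries were alternatives.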

Additional observations from a re-analysis of the deposited data

How the results depend on the processing

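The 18 fold changes of members were recomputed under 10 alternatives each, the crossed pairing not counted, 180 values, of which 159 kept their direction and their side of the threshold, 13 reversed, 8 passed the threshold with 1 library left out, and 0 lost a call. For 9 of the 18 no alternative reversed the sign. With 1 library left out, the fold changes that reversed ranged in neurons from -0.26 to 0.042 for Calca and from -0.32 to 0.46 for Ramp3, in endothelial cells from -0.0012 to 0.24 for Calcrl, in fibroblasts from -0.62 to 0.10 for Ramp1 and from -0.73 to 0.095 for Ramp3, in macrophages from -0.99 to 0.69 for Calca, and in peptidergic-like neurons from -0.061 to 0.16 for Calca and from -0.14 to 0.46 for Ramp3. Calca in pericytes was at 0.69 with the strict cell filter (at least 1000 UMIs, at most 10% mitochondrial). Calca in macrophages was at -0.092 with the replicate block and -0.77 with the strict filter. Without a change of sign, the strict filter gave Calca at -0.96 in endothelial cells, -0.77 in satellite glia and -0.38 in smooth muscle. It gave -0.097 in fibroblasts and -0.085 and -0.00066 in myelinating and non-myelinating Schwann cells. With doublet calls kept, Calca was at -0.32 in smooth muscle, -0.60 in endothelial cells and -0.37 in satellite glia. The cause was not tested.

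Counts of called genes moved widely when 1 library was left out, from 0 to 580 over all retained cells, 0 to 724 in neurons, 0 to 528 in satellite glia, 7 to 83 in non-myelinating and 17 to 110 in myelinating Schwann cells, 2 to 346 in endothelial cells, 2 to 45 in pericytes, 7 to 105 in smooth muscle, 0 to 1 in fibroblasts, 26 to 71 in macrophages and 0 to 425 in peptidergic-like neurons. DESeq2 called 51 genes over all retained cells, 9 in neurons, 7 in satellite glia, 0 in non-myelinating Schwann cells, 1 in pericytes, 0 in smooth muscle, 2 in macrophages and 8 in peptidergic-like neurons. With no low-count filter the counts were 1 in satellite glia, 41 and 38 in non-myelinating and myelinating Schwann cells, 0 in endothelial cells, 36 in smooth muscle, 28 in fibroblasts, 46 in macrophages and 16 in peptidergic-like neurons. With doublet calls kept they were 3 in non-myelinating Schwann cells, 1 in pericytes, 0 in smooth muscle and 3 in peptidergic-like neurons, and with the strict filter 0 in non-myelinating Schwann cells, endothelial cells, pericytes and smooth muscle.

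The labels state no pairing. Deviations of same-numbered libraries were negatively correlated across genes (-0.048 to -0.414). With 4 libraries these values cannot decide whether same-numbered libraries were handled together. With the replicate number as a block the counts were 28 and 5 in non-myelinating and myelinating Schwann cells, 1 in pericytes, 2 in smooth muscle, 10 in macrophages and 1 in peptidergic-like neurons. With the crossed pairing, chosen after seeing the data, they were 0 and 3 in the Schwann classes, 9 in endothelial cells, 33 in smooth muscle, 21 in fibroblasts, 25 in macrophages and 1 in peptidergic-like neurons, and endothelial Calca was among those called (edgeR adjusted p = 0.0118).

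The endothelial Calcrl level was 156.1 CPM with the strict filter. The CPIP minus Sham difference in the endothelial Calcrl share, -0.20 percentage points, was 1.19 unthinned and 1.11 at 500 UMIs, and -0.64 to 0.25 with 1 library left out. Likewise the Ramp1 share in fibroblasts moved from -4.09 to 0.96 and the Ramp3 share in peptidergic-like neurons from -2.98 to 5.67. Calca as a percent of its neuron level in satellite glia was 5.19 with the strict filter and 2.10 with the highest doublet scores left out, which gave 3.05 in endothelial cells, 3.39 in fibroblasts and 4.82 in macrophages. Depth limits Tacr1 (45 UMIs), Ramp1 (359) and Calcrl in pericytes (39).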

Other observations

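A cluster of 34 neurons was led by Vip, Gal and Tgfbi, with Atf3 and Npy, genes known to be induced in injured sensory neurons, among its leading genes. It held 18 and 15 cells in the CPIP libraries and 0 and 1 in the Sham libraries, too few for a fit. Calca was low in it, with 9 and 7 UMIs in the CPIP libraries and 0 and 1 in the Sham libraries, and no Calca UMI was found in 61.8% of its cells. No UMI of Calcrl, Ramp1 or Ramp3 was counted there. Clusters were formed from these same cells, so its size and its leading genes are a description.

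Rpl10a-ps9, a ribosomal protein pseudogene, was the gene called in neurons, endothelial cells and smooth muscle, and was named after its values were seen. Its log2 fold change of CPIP over Sham was 5.21 in neurons, 5.23 in endothelial cells and 5.31 in smooth muscle, and 5.15 in non-myelinating Schwann cells. On the scale of the fit, its neuron level was 22.4 and 35.4 CPM in the CPIP libraries and 0.779 and 0.772 CPM in the Sham libraries. A pseudogene can share reads with its parent gene, so its counts are uncertain. The cause of the difference was not tested.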
